A study of Mus musculus with 6 samples.

Results

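Expression of the genes that make, break down and sense prostaglandins was examined in corneal epithelial cells of mice in which *Ptch1*, the receptor that restrains Hedgehog signaling, had been deleted in the underlying stroma. The 10 genes were listed by symbol and were selected on earlier results of the same comparison, in which *Ptgs2* and *Ptges* were already known to be higher. Of these 10 genes, 9 were among the 17784 genes of the expression table, and *Ptger2* was not analysed here. All 9 passed the filter on low counts that left 12999 genes for testing, *Ptgs2* through the samples with the deletion alone. Because the comparison itself guided the choice, the values of the 9 genes are given as a description without a test.

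Bulk RNA-seq was performed on 3 *Prrx1-CreERT;Ptch1* f/f samples, written Ptch1Prrx1, and 3 control samples from *Ptch1* f/f mice without the recombinase. Both groups were given 3 doses of tamoxifen and kept for 2 months, and their age was 10 weeks per the labels. The paper describes tamoxifen at 2 months of age for this line. How that relates to the 10 weeks is not settled by the sources used here. *Prrx1-CreERT* is a knock-in, tamoxifen-inducible recombinase active in keratocytes, corneal endothelial cells and other ocular mesenchymal cells, so the deletion was directed at cells other than those sequenced. The epithelium was separated with EDTA, and nothing in the sources used here says whether animals were pooled within a sample.

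Prostaglandins are lipid mediators made from arachidonic acid, which cytosolic phospholipase A2 (*Pla2g4a*) releases from membranes. The cyclooxygenases COX-1 (*Ptgs1*) and COX-2 (*Ptgs2*) convert it to prostaglandin H2, and terminal synthases such as *Ptges* turn this into prostaglandin E2 (PGE2). PGE2 acts on 4 receptors named EP1 to EP4, and it is inactivated by 15-hydroxyprostaglandin dehydrogenase (*Hpgd*) followed by a reductase (*Ptgr1*). COX-1 is known as the constitutive enzyme and COX-2 as the one induced by injury, growth factors and cytokines, in the corneal epithelium as in other tissues.

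Depth was even, with 20296741 to 20625813 expected counts per sample, and 3 counts corresponded to 0.142 to 0.152 CPM (counts scaled to library size). *Ptch1* itself had 9.07 ± 1.54 TPM (SD, n = 3) in control and 6.21 ± 0.872 (SD, n = 3) in Ptch1Prrx1 epithelial cells, with a log2 fold change of -0.51 (SE 0.13, adjusted p = 0.0401, edgeR quasi-likelihood test). TPM is a share of all transcripts, scaled for transcript length, and can be compared between genes. The cells were epithelial by their markers, with 37107 to 49487 TPM of the corneal keratin *Krt12* and at most 0.07 TPM of the keratocyte gene *Kera*. Of the 8 corneal epithelial markers, only *Krt14* met the call rule given later. It had 534 to 644 TPM in control and 2420 to 5798 TPM in Ptch1Prrx1 samples. The 8 stromal markers in the table summed to 8.24 to 35.1 TPM in control and 6.88 to 9.77 TPM in Ptch1Prrx1 samples. *Col1a2* had 26.0 TPM in control replicate 3 and at most 2.62 TPM elsewhere, and *Pdgfra* had 3.26 to 6.91 TPM. *Dcn* was low but higher without overlap, at 0.06 to 0.36 TPM in control and 0.54 to 1.35 TPM in Ptch1Prrx1 samples. Ptch1Prrx1 replicate 1 stood apart, at 44.7 on the first principal component against 15.2 and 15.9 for the other 2 Ptch1Prrx1 samples and -29.0 to -23.0 for the controls. Results that rest on it are therefore given with and without it.

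The promoters of the 2 cyclooxygenase genes and of *Ptges* are shown. *Ptgs2* and *Ptges* were already known to be higher when the genes were chosen, and *Ptgs1* is the constitutive counterpart of *Ptgs2*. The sequences are from RefSeq (GRCm38.p6, matched by symbol for all 9 genes), they give the 250 bases before the annotated start, and capitals mark matches to the motifs listed after them. The *Ptgs2* promoter lies at chr1:150099781-150100030 on the plus strand, that of *Ptges* at chr2:30903298-30903547 on the minus strand, and that of *Ptgs1* at chr2:36230176-36230425 on the plus strand.
Ptgs2: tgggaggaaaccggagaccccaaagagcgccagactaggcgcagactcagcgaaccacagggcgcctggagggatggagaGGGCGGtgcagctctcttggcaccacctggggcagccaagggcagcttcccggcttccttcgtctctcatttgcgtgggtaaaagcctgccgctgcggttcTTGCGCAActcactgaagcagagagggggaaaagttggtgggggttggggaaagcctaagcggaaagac
Ptges: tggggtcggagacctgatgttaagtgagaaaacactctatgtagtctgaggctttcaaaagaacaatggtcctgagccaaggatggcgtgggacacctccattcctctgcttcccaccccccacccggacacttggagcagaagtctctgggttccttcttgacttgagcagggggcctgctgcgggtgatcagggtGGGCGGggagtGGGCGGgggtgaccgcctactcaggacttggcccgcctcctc
Ptgs1: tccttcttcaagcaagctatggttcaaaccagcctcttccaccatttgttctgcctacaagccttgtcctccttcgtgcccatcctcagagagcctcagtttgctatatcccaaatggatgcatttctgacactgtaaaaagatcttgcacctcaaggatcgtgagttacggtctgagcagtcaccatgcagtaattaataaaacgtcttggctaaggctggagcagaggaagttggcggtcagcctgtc

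Both strands were searched in these bases and the 50 that follow the annotated start. The motifs were a C/EBP site (TTGCGCAA), a GC box (GGGCGG), an E-box (CACGTG), a CRE core (TGACG), an AP-1 site (TGANTCA) and the NF-kB consensus. The C/EBP palindrome began 69 bases before the *Ptgs2* start and was held by 0.183% of 32851 promoters. *Ptgs2* also held a GC box, held by 35.7% of promoters. In the 50 bases after its annotated start lay an overlapping CRE core and E-box, which 20.8% and 7.15% of promoters held. The *Ptges* promoter had 2 GC boxes, 53 and 42 bases before the start. *Ptgs1* had no match to any of the 6 motifs in this window, and AP-1 (7.81% of promoters) and NF-kB (4.51%) letters were absent from the windows of all 9 genes. A GC box was present in the windows of 6 of the 9 genes, the other 4 being *Ptges3*, *Hpgd*, *Ptgr1* and *Ptger4*. A match describes the letters and not the binding of a factor.

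*Ptgs2*, which encodes the inducible COX-2, was nearly absent from control epithelial cells and clearly detected in every Ptch1Prrx1 sample. Control replicates 1, 2 and 3 had 3, 1 and 3 expected counts, and Ptch1Prrx1 replicates 1, 2 and 3 had 3016, 276 and 547. On the TPM scale these were 0.02 to 0.07 in control samples and 69.5, 6.62 and 13.3 in the Ptch1Prrx1 samples. The groups were far apart, but the Ptch1Prrx1 samples also differed 11-fold among themselves. Summed over the samples of a group, the depth-scaled ratio of counts was 568, with a 95% interval of 276 to 1410 that covers counting error only. Without Ptch1Prrx1 replicate 1 the ratio was 181 (95% counting interval 87.7 to 453). The fitted log2 fold change was 9.09 (SE 1.45), a value that depends on the small number added to control counts near 0.

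Markers of other cells moved with *Ptgs2* in part. The platelet chemokine gene *Ppbp* had 0 to 0.31 TPM in control samples and 67.0, 6.35 and 10.3 TPM in Ptch1Prrx1 replicates 1, 2 and 3. The other 2 listed platelet markers in the table, *Itga2b* and *Gp1ba*, overlapped between the groups, and *Ppbp* was the only called gene of the list. The summed TPM of 6 neutrophil markers was 10.2 to 10.5 in control samples and 460 in Ptch1Prrx1 replicate 1, against a lowest Ptch1Prrx1 sum of 7.81. This sum was carried by *S100a8* and *S100a9*, which epithelial cells can also make, while *Mpo* reached at most 0.04 TPM and the leukocyte gene *Ptprc* at most 0.20 TPM. The 4 conjunctival keratins of the marker list summed to 1400 to 2320 TPM in control samples, 4670 in Ptch1Prrx1 replicate 1 and at least 2180 in the others. *Krt13* made up most of this sum in every sample. *Krt8* went the other way, with 11.98 to 15.62 TPM in control and 5.9 to 7.96 TPM in Ptch1Prrx1 samples. The mast cell markers, mostly *Kit*, summed to 110 to 135 TPM in control and 61.5 to 97.3 TPM in Ptch1Prrx1 samples. The sums of the macrophage and dendritic cell markers overlapped (114 to 151 and 149 to 194 TPM). On normalized counts the 2 tested genes of this list, *Cd68* and *Itgam*, were higher without overlap, as were 19.7% of all tested genes. Their log2 fold changes were 0.27 and 0.48, and neither was called. The part of these cells in the *Ptgs2* level was not tested, and in bulk samples a change in the mix of cells and one in the RNA of each cell cannot be told apart.

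**Figure D1:**
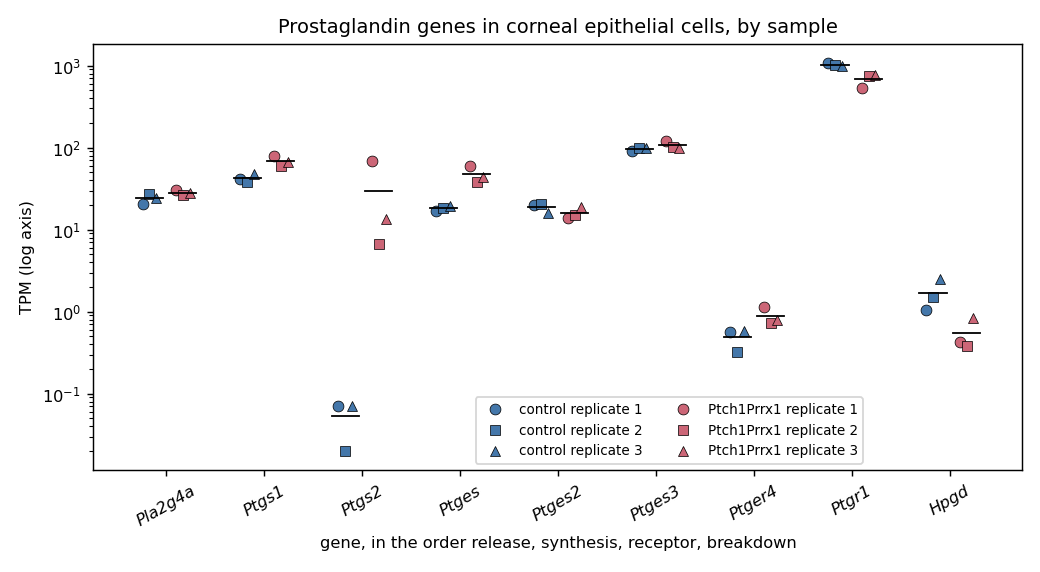
TPM (log axis) of the 9 genes in each of the 6 samples, ordered by role. Symbols are single samples, horizontal lines are group means (n = 3), and *Ptgs2* is the gene whose groups lie farthest apart, at up to 0.07 TPM in control and from 6.62 TPM in Ptch1Prrx1 samples.

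*Ptgs1*, the constitutive COX-1, was the main cyclooxygenase transcript of control epithelial cells and was also higher in Ptch1Prrx1 samples. It had 41.4, 38.3 and 48.4 TPM in control replicates 1, 2 and 3 and 78.6, 59.1 and 67.5 TPM in Ptch1Prrx1 replicates 1, 2 and 3. The groups did not overlap, and the log2 fold change was 0.68 (SE 0.13), below the 2-fold difference required for a call.

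The balance of the 2 cyclooxygenases therefore differed between the groups. *Ptgs2* made up 0.169%, 0.0522% and 0.145% of their summed TPM in control replicates 1, 2 and 3. In Ptch1Prrx1 replicates 1, 2 and 3 it made up 46.9%, 10.1% and 16.5%. *Ptgs1* remained the more abundant cyclooxygenase transcript in all 6 samples, by a factor of 1.13 in Ptch1Prrx1 replicate 1 and of 8.92 and 5.06 in replicates 2 and 3. The summed level was 42.8 ± 5.17 TPM (SD, n = 3) in control and 98.2 ± 43.9 TPM (SD, n = 3) in Ptch1Prrx1 samples, where replicate 1 alone reached 148.1 and the mean of the other 2 was 73.2.

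Among the PGE2 synthases, *Ptges* stood apart from the other 2 genes. It encodes the inducible microsomal enzyme that is known to work with COX-2. *Ptges* had 16.9, 18.1 and 19.4 TPM in control replicates 1, 2 and 3 and 60.4, 38.2 and 43.5 TPM in Ptch1Prrx1 replicates 1, 2 and 3. All Ptch1Prrx1 values lay above all control values, with a log2 fold change of 1.46 (SE 0.19). Without Ptch1Prrx1 replicate 1 the log2 fold change was 1.2. In RefSeq the gene overlaps 2 predicted genes, *Gm52550* and *Gm13400*, that have no row here, and whether reads were counted by strand is not given in the sources used here.

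*Ptges2*, a constitutive membrane-associated synthase, had 19.9, 20.3 and 16.1 TPM in control samples and 13.8, 15.1 and 18.6 TPM in Ptch1Prrx1 samples. The groups overlapped (log2 fold change -0.21, SE 0.14). *Ptges3* encodes the cytosolic synthase, also known as p23, a co-chaperone of Hsp90. It had 90.8, 99.1 and 100.2 TPM in control samples and 121.3, 100.5 and 98.2 TPM in Ptch1Prrx1 samples, which also overlapped (log2 fold change 0.19, SE 0.11). Of the summed TPM of the 3 synthase genes, *Ptges* made up 13.6% ± 0.635 (SD, n = 3) in control and 27.6% ± 3.04 (SD, n = 3) in Ptch1Prrx1 samples. *Ptges3* stayed the highest synthase transcript in every sample.

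**Figure D2:**
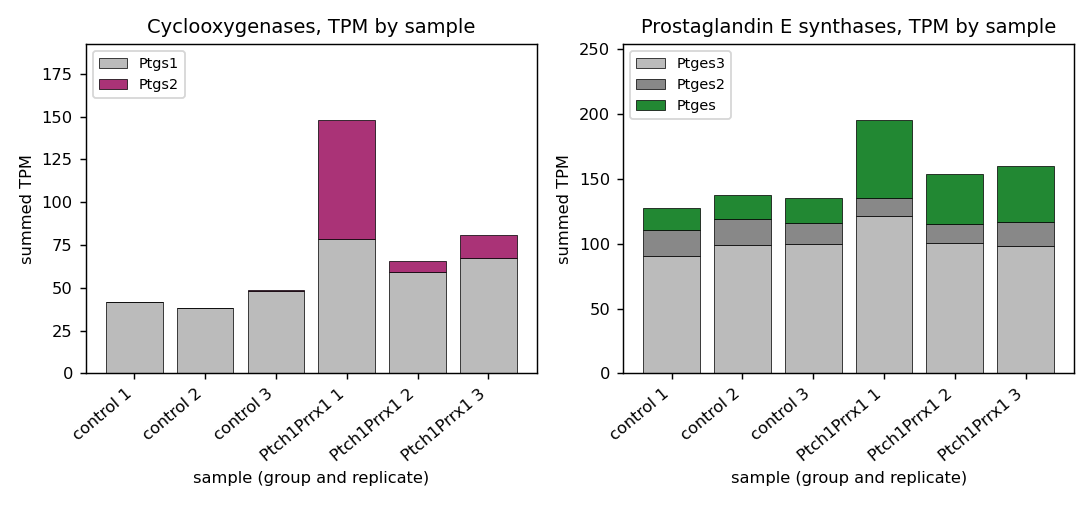
Stacked bars of the TPM of the 2 cyclooxygenase genes (left) and the 3 PGE2 synthase genes (right), one bar per sample. *Ptgs2* takes 46.9%, 10.1% and 16.5% of the cyclooxygenase bar in Ptch1Prrx1 replicates 1, 2 and 3 and at most 0.169% in control samples.

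The gene that supplies the substrate differed little. *Pla2g4a* had 20.5, 27.4 and 24.5 TPM in control samples and 30.7, 26.5 and 27.8 TPM in Ptch1Prrx1 samples. On this scale the groups overlapped, and on normalized counts the highest control (719.7) and the lowest Ptch1Prrx1 sample (720.4) differed by less than 1 count. The log2 fold change was 0.28 (SE 0.12).

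Both chosen genes of PGE2 inactivation, *Hpgd* and *Ptgr1*, were lower in the Ptch1Prrx1 samples, and neither met the call rule. *Hpgd*, the enzyme of the first and rate-limiting step, was scarce throughout, with 17, 24 and 40 counts in control replicates 1, 2 and 3 and 7, 6 and 13 in Ptch1Prrx1 replicates 1, 2 and 3. These counts correspond to 1.04 to 2.52 TPM and 0.38 to 0.84 TPM, and the groups did not overlap (log2 fold change -1.57, SE 0.44). The log2 fold change was -1.19 without control replicate 3, its highest sample, and -1.96 without Ptch1Prrx1 replicate 3. Control replicate 3 also had the highest sum of stromal markers (35.1 TPM), whose part in the *Hpgd* level was not tested. With DESeq2 *Hpgd* met the call rule.

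*Ptgr1*, the reductase that acts on the product of *Hpgd* and also on leukotriene B4 and lipid aldehydes, was the most abundant of the 9 genes. It had 1064, 1020.0 and 984 TPM in control samples and 531, 749.6 and 779 TPM in Ptch1Prrx1 samples. All Ptch1Prrx1 samples lay below all control samples (log2 fold change -0.55, SE 0.12). The ratio of *Ptges* to *Hpgd* TPM, which sets a synthesis gene against a breakdown gene, was 7.72 to 16.2 in control samples and 51.7 to 141 in Ptch1Prrx1 samples. Its denominator rests on the few counts of *Hpgd*.

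The receptor gene *Ptger4* encodes EP4, which raises cyclic AMP (cAMP) and is bound by PGE2. It was expressed at a low level, with 18, 10 and 18 counts in control samples and 37, 22 and 24 in Ptch1Prrx1 samples. The mean was 0.490 ± 0.148 TPM (SD, n = 3) in control and 0.890 ± 0.229 TPM (SD, n = 3) in Ptch1Prrx1 samples, without overlap (log2 fold change 0.90, SE 0.35). At this depth the control values rest on at most 18 counts a sample.

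In control samples the order of mean TPM was *Ptgr1* (1023), *Ptges3* (96.7), *Ptgs1* (42.7), *Pla2g4a* (24.1), *Ptges2* (18.8), *Ptges* (18.2), *Hpgd* (1.69), *Ptger4* (0.49) and *Ptgs2* (0.0533). The samples of *Ptges2* and *Ptges* overlapped, and every other neighbouring pair was separated. In Ptch1Prrx1 samples *Ptgs2* moved from the last place to the fifth, with a mean of 29.8 ± 34.5 TPM (SD, n = 3) whose spread covered the levels of *Ptges*, *Pla2g4a* and *Ptges2*. Without Ptch1Prrx1 replicate 1 its mean was 9.97 TPM and its place 7, below *Pla2g4a* and *Ptges2*.

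Read against the whole table, 2 of the 9 genes met the call rule (a 2-fold difference with an adjusted p not above 0.05), *Ptgs2* and *Ptges*, both higher. Of all 12999 tested genes 2.34% were called higher and 0.892% lower, 3.23% in all. The groups did not overlap for 5 genes that were higher and 2 that were lower, while 19.7% and 20.3% of all tested genes were separated in these directions. As the genes were chosen with this comparison known, nothing is read from these counts or from any call of the 9 genes. Without control replicate 2 neither *Ptgs2* nor *Ptges* met the rule, and the fit of all genes then called 59 in place of 420. With limma-voom *Ptges* was called and *Ptgs2* was not.

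**Figure D3:**
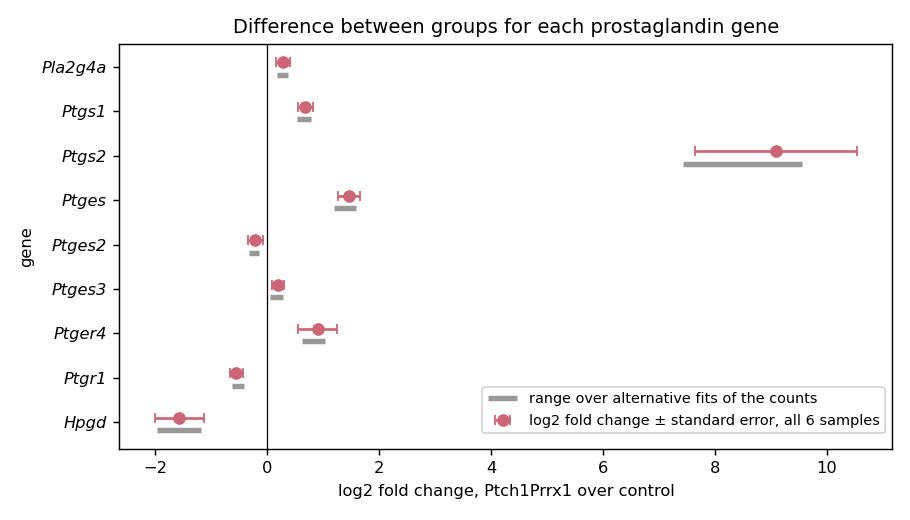
Log2 fold change of Ptch1Prrx1 over control for each gene, with points and bars for the fitted value ± SE (3 samples per group) and grey bars for the range over other fits of the counts. No grey bar crosses 0, and that of *Ptgs2* runs from 7.42 to 9.56.

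The spread also differed. The coefficient of variation of normalized counts was 4.16% in control and 29% in Ptch1Prrx1 samples for *Ptges*, 2.57% and 16.6% for *Ptges3*, and 6.54% and 15.9% for *Ptgr1*. For *Ptges2* it was 14.4% and 11.2%, for *Pla2g4a* 12.5% and 11.6%, for *Hpgd* 42.5% and 41.5% and for *Ptger4* 30.1% and 30.8%.

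Within the Ptch1Prrx1 group *Ptgs1*, *Ptgs2*, *Ptges*, *Ptger4* and *Pla2g4a* were highest in replicate 1 and lowest in replicate 2. Of all tested genes 19.4% had this order. *Ptges3* was highest in replicate 1 and lowest in replicate 3, *Hpgd* was highest in replicate 3, and *Ptgr1* and *Ptges2* were lowest in replicate 1. These orders are not independent of the choice of genes, since replicate 1 also lay farthest from the controls over all genes.

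Over the 6 samples, *Ptges* was among the genes whose log2 CPM followed that of *Ptgs2* most closely (Pearson's r = 0.998). The comparison covered 10322 other genes averaging 100 or more normalized counts. The closest others were *Epha2*, an ephrin receptor, *Dynap*, a pro-survival membrane protein gene, *Slc30a4*, a zinc transporter, and *Eif2ak3*, which encodes the stress kinase PERK. Their r was 0.997 to 0.998, so *Ptges* did not stand apart from them at this precision. The 6 samples form 2 separate groups, so that r mostly reflects the difference between them together with the place of replicate 1. *Ptgs2* and *Ptges* were chosen as higher in this comparison, and *Ptgs2* had at most 3 counts in control samples. Nothing is therefore read from their correlation. *Dynap* had 8.18 ± 1.43 normalized counts (SD, n = 3) in control and 313.6 ± 244 (SD, n = 3) in Ptch1Prrx1 samples, whereas the log2 fold changes of *Epha2*, *Slc30a4* and *Eif2ak3* were 0.87, 0.53 and 0.60.

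**Figure D4:**
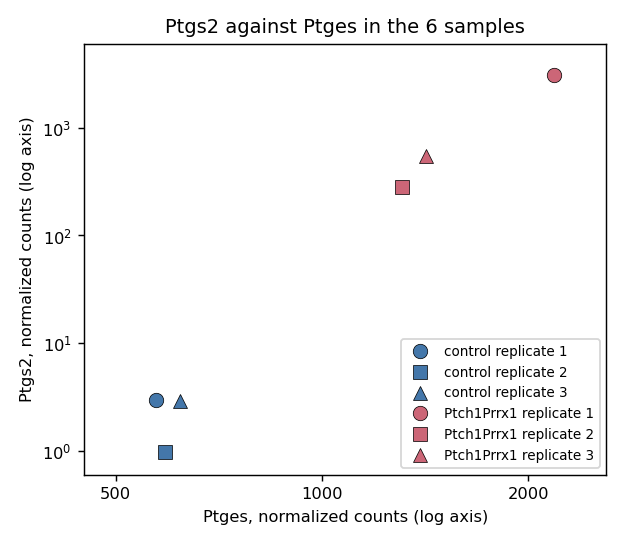
Normalized counts of *Ptgs2* against *Ptges* (both log axes), one symbol per sample. The 3 control samples sit between 572.4 and 621.2 counts of *Ptges*, and Ptch1Prrx1 replicate 1 lies highest on both axes at 2180.0 and 3118.

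The other genes of the pathway were taken from 7 lists of 128 genes, of which 121 were in the table and 98 were tested. Of these 98 genes, 7 rose and 2 fell in Ptch1Prrx1 cells (9.18%, against 3.23% of all tested genes), with a median log2 fold change of -0.04 against -0.01 for all tested genes. Of the 9 called genes, 3 were known from earlier results of these data, namely *Jun*, *Fos* and *Pla2g15*. Leaving out the list of promoter and mRNA factors, 4 rose and 2 fell, including *Pla2g15*, among 72 genes (8.33%). Without Ptch1Prrx1 replicate 1, 5 of the listed genes were called higher and 2 lower. Without control replicate 2 only *Jun* and *Zfp36* were called. By adjusted p alone, with no minimum fold change, 25 of the 98 genes passed (25.5%, against 14.0% of all tested genes), 11 higher and 14 lower. As the lists were also chosen with earlier results of these data known, nothing is read from these shares.

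Among 22 tested phospholipase and arachidonate-handling genes, 2 fell and the other 20 were not called. *Faah*, the hydrolase that splits anandamide into arachidonic acid and ethanolamine, had 1.60 ± 0.230 TPM (SD, n = 3) in control and 0.430 ± 0.121 TPM (SD, n = 3) in Ptch1Prrx1 samples (log2 fold change -1.86, SE 0.26, adjusted p = 0.0105, edgeR). *Pla2g15*, a lysosomal phospholipase, had 6.14 ± 1.08 and 2.54 ± 0.458 TPM (SD, n = 3 each; log2 fold change -1.24, adjusted p = 0.0119, edgeR). The most abundant members that were not called were *Fads2*, *Fads1* and *Lpcat3*, which make arachidonic acid or place it in phospholipids. *Fads1*, the delta-5 desaturase, had 115.4 ± 6.08 TPM in control and 67.7 ± 9.92 TPM in Ptch1Prrx1 samples (SD, n = 3 each), with a log2 fold change of -0.73 (adjusted p = 0.0101, edgeR) that did not reach 2-fold. Those of *Fads2* and *Lpcat3* were both -0.21.

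Of 8 other tested prostanoid synthases and related reductases, 1 rose. *Akr1b8*, an aldo-keto reductase, had 9.30, 10.1 and 13.3 TPM in control samples and 87.3, 48.5 and 44.5 TPM in Ptch1Prrx1 samples (log2 fold change 2.52, SE 0.31, adjusted p = 0.00770, edgeR). Its relatives *Akr1b3*, a prostaglandin F synthase, and *Akr1b7* had log2 fold changes of 0.35 and -0.25, and *Cbr1*, a carbonyl reductase that acts on PGE2, one of -0.30. None of these 3 was called, and the similar *Akr1b* genes can share reads. Among 8 genes of prostaglandin transport and further breakdown, 0 were called by edgeR, DESeq2 or limma-voom and 4 had an unadjusted p under 0.05. Of these 8 genes 6 lay lower in all Ptch1Prrx1 samples than in all controls, a pattern found in 20.3% of all tested genes. The most abundant were *Slco3a1* (log2 fold change -0.55), a transporter, *Abcc4* (-0.14), which exports PGE2, and *Hsd17b4* (-0.15), a peroxisomal enzyme. *Ptgr2*, another reductase of the *Hpgd* product, named after its values were seen, had a log2 fold change of -0.01 and overlapping groups.

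Apart from *Ptger4*, only 1 of 8 listed receptor genes passed the filter. *Ptger1*, which encodes the calcium-coupled PGE2 receptor EP1, had 5.95, 7.79 and 6.77 TPM in control and 4.15, 4.65 and 6.26 TPM in Ptch1Prrx1 samples, and was not called (log2 fold change -0.40, adjusted p = 0.0957, edgeR). Of the 3 PGE2 receptor genes in the table *Ptger1* was the highest in every sample. *Ptger3*, named after its values were seen, had at most 0.11 TPM. Together with it, the 5 receptor genes for other prostanoids reached at most 0.47 TPM and 8 counts in any sample, too few for a difference to be detected at this depth.

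Downstream of EP2 and EP4, 2 of 22 tested genes of the cAMP arm rose. *Adcy7*, an adenylyl cyclase, had 0.263 ± 0.0981 TPM in control and 1.18 ± 0.214 TPM in Ptch1Prrx1 samples (SD, n = 3 each; log2 fold change 2.14, SE 0.37, adjusted p = 0.0163, edgeR). *Akap12*, a scaffold for protein kinase A, had 0.297 ± 0.132 and 0.953 ± 0.255 TPM (SD, n = 3 each; log2 fold change 1.73, adjusted p = 0.0261, edgeR). Both were low, and *Akap12* was no longer called without any one of control replicates 1 and 2 and Ptch1Prrx1 replicates 1 and 3. The abundant genes *Gnas*, for the stimulatory G protein, and *Prkar1a* and *Prkaca*, for subunits of protein kinase A, had log2 fold changes of 0.14, 0.09 and -0.09 and were not called. By adjusted p alone, 2 genes of this list passed as higher and 4 as lower. The lower genes, named after their values were seen, were *Adcy2* (-0.85), *Adcy6* (-0.67), *Adcy9* (-0.7) and *Rapgef3* (-0.7). Each fell short of 2-fold, and their groups did not overlap. *Adcy6* had 14.75 to 20.06 TPM in control and 9.65 to 11.98 TPM in Ptch1Prrx1 samples (adjusted p = 0.0147, edgeR).

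The parallel lipoxygenase branch makes leukotrienes and hydroxy fatty acids from the same substrate. Its list here also held receptor and epoxide hydrolase genes, and 1 of 11 tested genes rose. *Alox12b*, the 12R-lipoxygenase of the epidermal lipid barrier, had 2.04, 0.32 and 0.92 TPM in control and 11.6, 7.83 and 4.02 TPM in Ptch1Prrx1 samples (log2 fold change 2.88, SE 0.62, adjusted p = 0.0278, edgeR). Its call was lost without any one of 4 samples, namely control replicates 2 and 3 and Ptch1Prrx1 replicates 1 and 2. *Ephx1*, an epoxide hydrolase, had 315.6 ± 25.3 TPM in control and 177.3 ± 42.5 TPM in Ptch1Prrx1 samples (SD, n = 3 each; log2 fold change -0.80, adjusted p = 0.0206, edgeR), short of a 2-fold difference. The leukotriene A4 hydrolase gene *Lta4h* (-0.11) and *Ephx2* (-0.39) were not called. *Alox12*, named after its values were seen, had the highest mean TPM of the listed lipoxygenases. It had 50.1 ± 3.13 TPM in control and 32.8 ± 7.43 TPM in Ptch1Prrx1 samples (SD, n = 3 each). Its log2 fold change of -0.58 (adjusted p = 0.0304, edgeR) was also short of 2-fold.

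Of 26 factors known to act on the *Ptgs2* promoter or mRNA, 3 rose. *Jun*, an AP-1 subunit, had 60.1 ± 2.79 TPM in control and 319.3 ± 97.1 TPM in Ptch1Prrx1 samples (SD, n = 3 each; log2 fold change 2.47, SE 0.24, adjusted p = 0.00436, edgeR). *Fos*, its partner, had 129.9 ± 15.8 and 304.7 ± 107 TPM (SD, n = 3 each; log2 fold change 1.26, adjusted p = 0.0180, edgeR), and its call was lost without any one of the 3 control samples or Ptch1Prrx1 replicate 2. *Fos* was lowest in Ptch1Prrx1 replicate 1 among the Ptch1Prrx1 samples (196 TPM, against 410.1 and 308 in replicates 2 and 3), and *Jun* was highest there (421 TPM, against 309.4 and 227 in replicates 2 and 3). *Zfp36*, which encodes tristetraprolin, a protein that promotes decay of AU-rich mRNAs such as that of *Ptgs2*, had 235.8 ± 29.6 and 631 ± 131 TPM (SD, n = 3 each; log2 fold change 1.47, SE 0.18, adjusted p = 0.00797, edgeR). Its relatives *Zfp36l1* and *Zfp36l2* had log2 fold changes of -0.05 and 0.61, *Rela* one of 0.31, and none of these was called. By adjusted p alone, 6 of the 26 genes passed as higher and 1 as lower. Of these, *Zfp36l2* fell short of 2-fold, as did *Cebpb* (0.65), *Nfkb1* (0.50) and *Celf2* (-0.36), named after their values were seen. The groups did not overlap for 12 genes that were higher and 1 that was lower, against 19.7% and 20.3% of all tested genes.

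**Figure D5:**
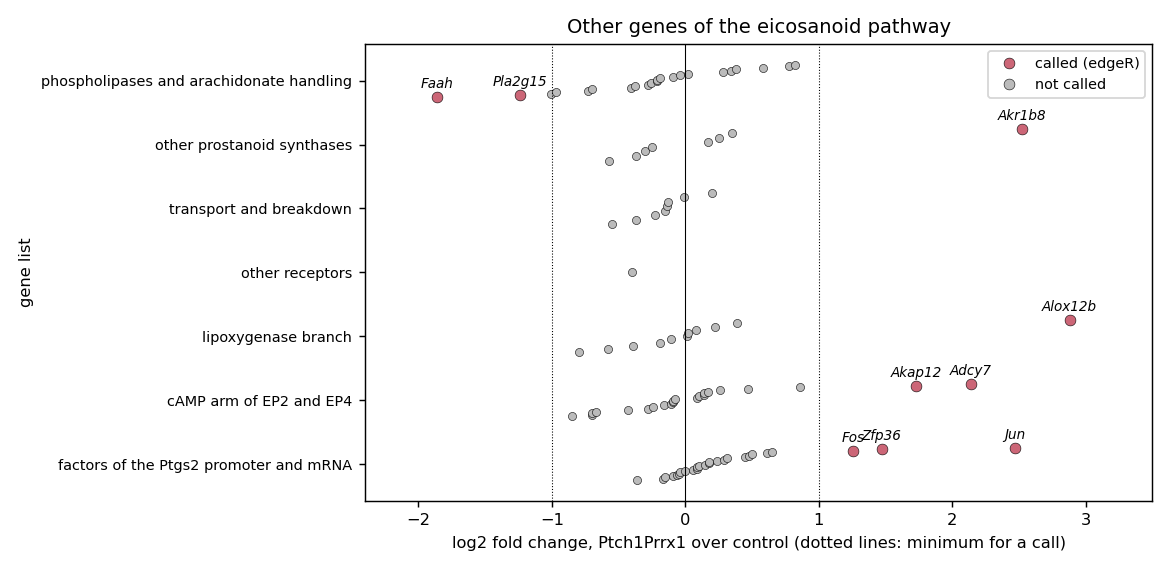
Log2 fold change of each tested gene of the 7 pathway lists (3 samples per group), with called genes in red and named and the 2-fold limits dotted. Of the 98 points, 7 called genes lie to the right and 2 to the left.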

How the data were processed

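Bulk RNA-seq of corneal epithelial cells was analysed in 3 control and 3 Ptch1Prrx1 samples, grouped by their labels. The study's methods give separate biological replicates, rRNA depletion and a BGISEQ-500 instrument, and the labels name an Illumina kit. The authors aligned clean reads with Bowtie2 2.2.5 and quantified genes with RSEM 1.2.12 (the submitters' processing notes also name mm9). They deposited expected counts, which are estimated and not scaled for depth, and the TPM and FPKM values of RSEM. The authors' group means and the FPKM values were not used. The number of other sample columns was 0.

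Expected counts were rounded (39.4% of values above 0 were not whole; those of *Ptgs1* and *Ptges* were fractional, so reads were shared with other genes). The whole table was fitted with edgeR 4.0.16 in R 4.3.3 (TMM factors, filterByExpr with its minimum of 10 counts, quasi-likelihood test, Benjamini-Hochberg adjustment over 12999 genes). Calls required both a change of 2-fold or more and an adjusted p not above 0.05. Normalized counts are counts on TMM-scaled library sizes, SE is the log2 fold change over the root of the F statistic, and log2 CPM had 0.5 added. An exact test of 3 against 3 samples cannot go below p = 0.10, so only the model-based p is given. Samples of one group differed by more than sampling noise (chi-square per degree of freedom 10.5 to 40.0).

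The genes and lists were chosen with earlier results of these data known. The text names all 9 genes and, per list, called genes (up to 8) and the 3 most abundant others, and genes named outside this rule are said to be so. Alternatives were DESeq2 1.42.0, limma 3.58.1 (voom, and log2 TPM with 1 or 0.1 added and a mean TPM of at least 1 or no filter), other factors, filters and thresholds, a replicate block and each sample left out. The fit was tested on simulated data with the same dispersion for every gene and no outlying sample. Such data do not match the spread among the Ptch1Prrx1 samples. Same-numbered samples were not treated as pairs.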

Additional observations from a re-analysis of the deposited data

How the results depend on the processing

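For the listed pathway genes other than the 9 chosen ones, 9 were called, and DESeq2, limma-voom, changed filters or size factors, and limma on filtered log2 TPM gave 6 to 10. Without the 2-fold requirement 25 were called, and log2(TPM + 1) without a filter, tested by limma, gave 5. Leaving out 1 sample gave 2 to 8. Over all genes, 420 were called, against 1822 without the 2-fold requirement, 234 on filtered log2(TPM + 1) in limma and 168 on the same scale unfiltered, and 59 to 430 when 1 sample was left out. The causes were not tested. Same-numbered samples had correlations of their deviations of 0.131, 0.0467 and 0.0594. Control replicates 1 and 3 matched the Ptch1Prrx1 sample of their own number best, and control replicate 2 matched replicate 3. Such values cannot decide whether the samples were paired, which the sources used here do not state. With the number as a replicate block, 10 pathway genes were called, and *Hpgd* met the call rule, as it did with DESeq2. The sign of the log2 fold change of each of the 9 chosen genes held in every alternative that kept the gene. That of *Ptgs2* was 4.23 or 6.93 on log2 TPM with 1 or 0.1 added and 7.42 without Ptch1Prrx1 replicate 1, and that of *Hpgd* was -0.77 on log2(TPM + 1). An added constant lowers the fold change of scarce genes. Depth limits *Ptgs2* in control samples, *Hpgd*, *Ptger4* and the 6 receptor genes below the filter, which rest on at most 40 counts in a sample.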

Other observations

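Of the phospholipase and arachidonate-handling list, 3 further genes passed the adjusted p without reaching a 2-fold difference, and they are named here after their values were seen. *Pla2g7*, the secreted hydrolase of platelet-activating factor and oxidized phospholipids, had 39.3 ± 1.67 TPM in control and 19.9 ± 4.01 TPM in Ptch1Prrx1 samples (SD, n = 3 each; log2 fold change -0.97, adjusted p = 0.00906, edgeR). *Acsl4*, which activates arachidonic acid for storage in phospholipids, had 11.7 ± 1.66 and 20.03 ± 2.30 TPM (SD, n = 3 each; log2 fold change 0.82, adjusted p = 0.0145, edgeR). *Plaat3*, an adipose-type phospholipase, had a log2 fold change of -0.41 (SE 0.08, adjusted p = 0.0192, edgeR). For each of these 3 genes the groups did not overlap.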
